A study of Mus musculus with 3 samples.

Results

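The Dlx homeobox genes Dlx1, Dlx2, Dlx5 and Dlx6, the antisense RNA gene Dlx6os1, the LIM homeobox gene Lhx6 and the zinc finger genes Sp8 and Sp9 were chosen by symbol, and all 8 were among the 17992 genes counted. They were described in 3 brain libraries of adult wild-type C57BL/6 mice, 1 library per group. The sham library is labelled as untreated. The vehicle library, also labelled as untreated, stands for the occlusion model: the middle cerebral artery, which feeds much of the striatum and cortex, is blocked. The third library came from mice on AGNHW, a traditional Chinese preparation also known as Angong Niuhuang Wan, at a daily 3 mg/g, and its labels do not repeat the occlusion. The sources used here do not give the brain region, the time after surgery or the number of mice pooled in a library.

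Dlx proteins are transcription factors of the embryonic ganglionic eminences, the ventral forebrain tissue from which GABAergic neurons arise. They promote the genes that make GABA, and they stay on in many adult forebrain interneurons and in the neuroblasts that leave the subventricular zone for the olfactory bulb. The genes lie as convergent neighbours, Dlx1 beside Dlx2 and Dlx5 beside Dlx6, with enhancers between them. Dlx6os1, also called Evf2, is a long noncoding RNA read from the strand opposite to Dlx6 and is known to regulate its Dlx neighbours. Lhx6 specifies interneurons of the medial eminence, which later make somatostatin or parvalbumin. Sp8 and Sp9 are related zinc finger factors of the lateral and caudal eminences and of olfactory bulb interneurons, and Sp9 also acts in striatal projection neurons.

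Of the 8 genes, 6 had promoter entries in RefSeq (GRCm38.p6), 11 entries in all, each of 250 bases before and 50 bases after a start. Dlx5 and Dlx6 had no entry, so the motif counts leave them out. The promoters below are shown because Dlx6os1 had the lowest vehicle-to-sham ratio of the 8 genes while Dlx1 differed little between libraries. Each is printed 5′ to 3′ on the gene's strand, with capitals for matches to TAATTA, a core that homeodomain proteins bind, and to GGGCGG, the GC box of Sp-type zinc finger proteins, both searched on either strand. The first Dlx6os1 start was at chr6:6869484-6869783 (minus strand), the second at chr6:6861634-6861933 (minus strand), Dlx1 at chr2:71529195-71529494 (plus strand) and Dlx2 at chr2:71546705-71547004 (minus strand).
Dlx6os1, first start: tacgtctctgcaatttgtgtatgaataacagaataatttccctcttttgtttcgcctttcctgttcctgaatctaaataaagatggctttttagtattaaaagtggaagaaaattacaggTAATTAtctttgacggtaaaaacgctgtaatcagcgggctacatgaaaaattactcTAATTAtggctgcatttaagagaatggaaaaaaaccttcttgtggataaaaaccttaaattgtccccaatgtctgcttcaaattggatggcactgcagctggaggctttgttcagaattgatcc
Dlx6os1, second start: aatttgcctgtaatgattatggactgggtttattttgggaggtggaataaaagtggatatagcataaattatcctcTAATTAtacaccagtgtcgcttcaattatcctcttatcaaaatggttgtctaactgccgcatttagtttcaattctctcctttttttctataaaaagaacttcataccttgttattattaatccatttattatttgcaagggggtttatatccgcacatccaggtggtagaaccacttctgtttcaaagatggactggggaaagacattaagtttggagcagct
Dlx1: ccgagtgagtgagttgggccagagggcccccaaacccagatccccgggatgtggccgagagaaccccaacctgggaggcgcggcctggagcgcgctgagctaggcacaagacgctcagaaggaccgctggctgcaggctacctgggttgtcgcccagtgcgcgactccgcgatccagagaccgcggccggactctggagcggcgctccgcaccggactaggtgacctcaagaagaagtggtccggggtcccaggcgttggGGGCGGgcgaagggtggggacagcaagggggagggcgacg
Dlx2: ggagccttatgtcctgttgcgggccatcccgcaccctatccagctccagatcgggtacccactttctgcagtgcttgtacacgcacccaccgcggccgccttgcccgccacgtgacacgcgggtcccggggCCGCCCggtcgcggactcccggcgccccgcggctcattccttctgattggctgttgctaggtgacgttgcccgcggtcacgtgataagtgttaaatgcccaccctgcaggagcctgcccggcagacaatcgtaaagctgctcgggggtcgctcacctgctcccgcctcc

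The Dlx6os1 windows held 2 TAATTA matches at the first start and 1 at the second, and no GGGCGG. The Dlx1 and Dlx2 windows each held 1 GGGCGG and no TAATTA. Over the 11 entries of these genes, 3 held TAATTA (the third is 1 of the 3 Sp8 starts) and 6 held GGGCGG. Among all 32851 promoter entries the shares were 5.29% for TAATTA and 35.7% for GGGCGG. A match is a run of letters and not a bound site, and a link between matches and levels was not tested.

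The libraries held 15718594 to 18286151 counts. Levels are given as CPM, read counts relative to library size, scaled between libraries by the trimmed mean of M-values (TMM), with 95% intervals that cover counting error only. As each group has 1 library, the variation among mice is unknown, no test or p-value is given, and each ratio compares 2 libraries rather than 2 conditions. A ratio passed the size rule when it was at least 1.5 either way, its counting interval excluded 1, and the gene's mean was at least 1 CPM; 15558 genes, all 8 described here among them, reached that mean.

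The vehicle library stood apart from the other two in pituitary and red blood cell genes. The 7 counted of 9 listed pituitary genes summed to 3742 CPM in vehicle, against 4.52 CPM in sham and 4.54 CPM in AGNHW, with growth hormone (Gh) and prolactin (Prl) at 0 in sham. All 5 counted red blood cell genes were higher in vehicle, with a sum of 163.1 CPM there, against 52.8 CPM in sham and 65.1 CPM in AGNHW. The log2 ratio of vehicle to sham also followed transcript length and GC content, which explained 43.6% of its variance over 9941 genes. The share was 25.1% for AGNHW to vehicle and 35.3% for AGNHW to sham, so such a trend was not confined to comparisons with the vehicle library. Both comparisons that use the vehicle library rest on it alone, and ratios corrected for length and GC are given beside plain ones for the 8 genes; the part of the pituitary and blood RNA in the results was not tested.

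All 8 genes were detected in every library, at modest levels. Per kilobase of exon, the scale on which genes can be compared, Dlx1 was the highest in each library, at 6.8 CPM per kb in sham, 6.84 in vehicle and 7.4 in AGNHW. Lhx6 came next, at 5.14, 5.39 and 6.24 CPM per kb. In sham these were followed by Dlx6 (4.86), Dlx5 (3.57), Dlx2 (3.31), Sp9 (2.21), Dlx6os1 (1.5) and Sp8 (0.338). The AGNHW library had the same order. In vehicle, Dlx5 (3.25) stood above Dlx6 (3.1), but their intervals of 2.68 to 3.92 and 2.55 to 3.73 overlapped. In sham the intervals also overlapped between Lhx6 (4.69 to 5.63) and Dlx6 (4.23 to 5.55) and between Dlx5 (3.02 to 4.18) and Dlx2 (2.84 to 3.84), while Dlx1 (6.3 to 7.32) and Sp8 (0.226 to 0.486) overlapped with no other of the 8.

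**Figure D1:**
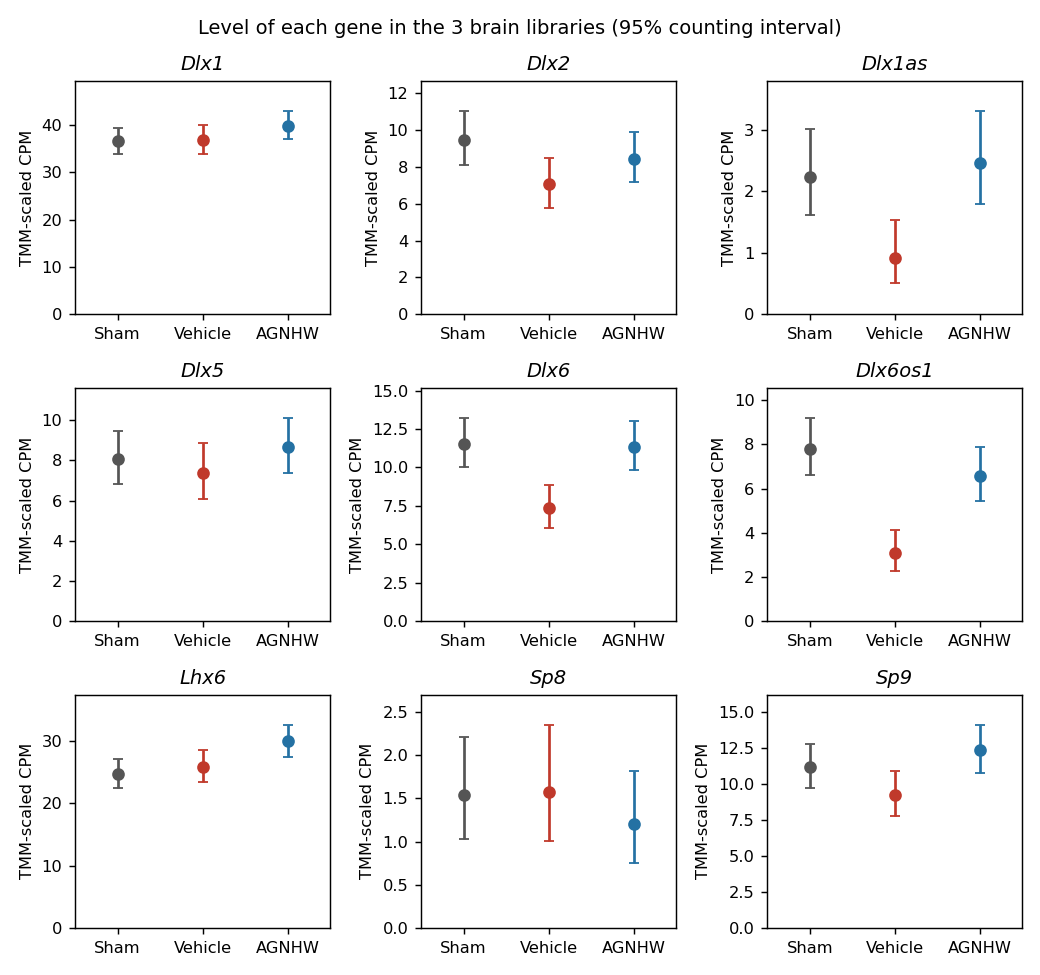
TMM-scaled CPM (y axis, from 0, a scale for each gene) of the 8 genes and of Dlx1as in the sham, vehicle and AGNHW libraries, each point 1 library with its 95% counting interval. Dlx6, Dlx6os1 and Dlx1as lie lowest in vehicle, with intervals clear of sham and AGNHW, while Dlx1 stays between 36.7 and 39.9 CPM.

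Of the neighbours Dlx1 and Dlx2, neither passed the size rule as TMM-scaled, and Dlx2 passed it after correction. Dlx1, the most abundant of the 4 Dlx genes, had 690 counts in sham, 561 in vehicle and 729 in AGNHW, or 36.7, 36.9 and 39.9 CPM. The levels were close and their intervals overlapped, with a vehicle-to-sham ratio of 1.01 (0.898 to 1.13) and an AGNHW-to-vehicle ratio of 1.08 (0.968 to 1.21). The corrected ratios of Dlx1 were 0.925 (0.826 to 1.04) and 1.12 (1.0 to 1.25). Dlx2, which shares much of its function with Dlx1, had 178, 107 and 154 counts in the same order, or 9.46, 7.04 and 8.43 CPM. Vehicle was the lowest, with a ratio to sham of 0.744 (0.58 to 0.951) that excluded 1 but fell short of the 1.5-fold limit. After correction for length and GC this ratio was 0.586 (0.457 to 0.749), past the limit. The AGNHW-to-vehicle ratio of Dlx2 was 1.2 (0.931 to 1.55), an interval that holds 1, and 1.35 (1.05 to 1.75) after correction, which excludes it.

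Of the other neighbours, Dlx6 passed the size rule and Dlx5 did not. Dlx6, a Dlx factor of ventral forebrain and craniofacial tissue, had 217 counts in sham, 112 in vehicle and 207 in AGNHW, or 11.5, 7.36 and 11.3 CPM. Sham and AGNHW were close and vehicle was lower, 1.57-fold below sham (1.24 to 1.99), and AGNHW was 1.54-fold above vehicle (1.22 to 1.95), both past the size rule. The corrected ratios were 0.574 (0.453 to 0.724) and 1.62 (1.28 to 2.06). Dlx5 had 152, 112 and 158 counts, or 8.08, 7.36 and 8.65 CPM, with ratios of 0.912 (0.708 to 1.17) for vehicle to sham and 1.17 (0.916 to 1.51) for AGNHW to vehicle. Both intervals hold 1, whereas those of the corrected ratios of Dlx5, 0.708 (0.549 to 0.909) and 1.35 (1.05 to 1.73), exclude it without passing the 1.5-fold limit. Counted inside each library, which needs no scaling between libraries, there were 142.8 Dlx6 counts per 100 of Dlx5 in sham and 131.0 in AGNHW, and as many of one as of the other in vehicle. The ratio of the vehicle value to the sham value was 0.701 (0.495 to 0.992), and that of AGNHW to vehicle was 1.31 (0.925 to 1.85), which holds 1.

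Dlx6os1 had the lowest vehicle-to-sham ratio and the highest AGNHW-to-vehicle ratio of the 8. It had 147 counts in sham, 47 in vehicle and 120 in AGNHW, or 7.81, 3.09 and 6.57 CPM. The vehicle value lay well below both others, which overlapped. It was 2.53-fold lower in vehicle than in sham (1.81 to 3.59) and 2.13-fold higher in AGNHW than in vehicle (1.51 to 3.05), and both passed the size rule. Its transcript is the most AT-rich of the 8, with 38.2% GC, and its ratios lay nearer to 1 after the length and GC correction: the corrected ratios were 0.572 (0.402 to 0.799) and 1.81 (1.29 to 2.6), both still past the limit. Per 100 counts of Dlx6 there were 67.7 counts of Dlx6os1 in sham, 42.0 in vehicle and 58.0 in AGNHW. The vehicle-to-sham ratio of these values was 0.62 (0.405 to 0.939), and the AGNHW-to-vehicle ratio of 1.38 (0.903 to 2.13) holds 1.

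The sources used here do not say whether reads were counted by strand, so reads of Dlx6 and Dlx6os1 could in principle mix. In GENCODE M21 (GRCm38), the 2375 exonic bases of Dlx6 and the 5215 of Dlx6os1 share 0 bases, so only unspliced or unannotated RNA could be counted for the wrong gene. The annotation that the authors counted with may differ from this one.

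The antisense gene of the other neighbours, Dlx1as, is not one of the 8 but runs opposite to Dlx1, and it too was lowest in vehicle. It had 42 counts in sham, 14 in vehicle and 45 in AGNHW, or 2.23, 0.92 and 2.46 CPM. It was 2.42-fold lower in vehicle than in sham (1.3 to 4.81) and 2.68-fold higher in AGNHW than in vehicle (1.44 to 5.28), both past the size rule on few counts, and the corrected ratios were 0.405 (0.204 to 0.757) and 2.77 (1.5 to 5.47). Per 100 counts of Dlx1 there were 6.09 of Dlx1as in sham, 2.5 in vehicle and 6.17 in AGNHW, a vehicle-to-sham ratio of 0.41 (0.205 to 0.776) and an AGNHW-to-vehicle ratio of 2.47 (1.32 to 4.93). The exons of Dlx1as and Dlx1 share 335 bases, 20.6% of Dlx1as, so without strand its counts are uncertain. Dlx6os2 was not among the counted genes.

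Lhx6 passed the size rule in no comparison. It had 465 counts in sham, 394 in vehicle and 548 in AGNHW, or 24.7, 25.9 and 30.0 CPM. Sham and vehicle were close, with a ratio of 1.05 (0.914 to 1.2), and AGNHW was the highest, at 1.16 times vehicle (1.02 to 1.32) and 1.21 times sham (1.07 to 1.38), below the 1.5-fold limit. The corrected ratios of Lhx6 were 0.928 (0.809 to 1.06) for vehicle to sham and 1.22 (1.07 to 1.39) for AGNHW to vehicle. For AGNHW to sham the corrected ratio was 1.13 (1.0 to 1.29). Per 100 counts of Dlx1 there were 67.4, 70.2 and 75.2 counts of Lhx6 in sham, vehicle and AGNHW, values whose intervals overlapped.

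Of the zinc finger factors, Sp9 was well counted and Sp8 was sparse. Sp9 had 210 counts in sham, 141 in vehicle and 226 in AGNHW, or 11.2, 9.27 and 12.4 CPM. Vehicle was lowest, with a ratio to sham of 0.831 (0.666 to 1.03), and AGNHW was 1.33 times vehicle (1.08 to 1.66), short of the size rule. The corrected ratios of Sp9 were 0.784 (0.629 to 0.975) and 1.37 (1.1 to 1.7), both of which exclude 1 within the 1.5-fold limit. Sp8 had 29, 24 and 22 counts, or 1.54, 1.58 and 1.2 CPM. Its vehicle-to-sham ratio of 1.02 (0.571 to 1.82) had an interval past 1.5-fold in both directions. For its AGNHW-to-vehicle ratio of 0.763 (0.408 to 1.42) the interval went past 1.5-fold only downward. Differences of that size in those directions were thus not excluded. Corrected, the Sp8 ratios were 1.04 (0.579 to 1.85) and 0.76 (0.406 to 1.41).

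**Figure D2:**
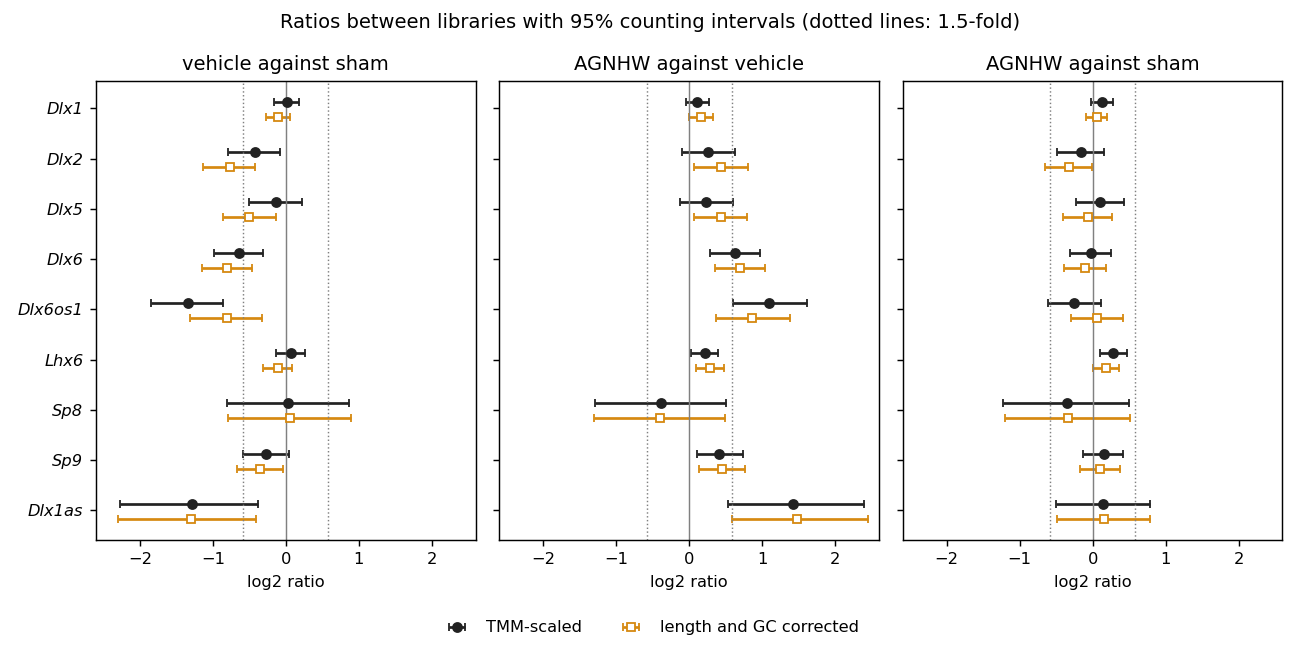
Log2 ratio between libraries (x axis) for the 8 genes and Dlx1as in each of the 3 comparisons, with 95% counting intervals, as TMM-scaled (filled circles) and after correction for transcript length and GC (open squares); dotted lines mark 1.5-fold. Dlx6, Dlx6os1 and Dlx1as pass the lower limit in vehicle against sham and the upper limit in AGNHW against vehicle, plain and corrected. Dlx2 passes the lower limit in vehicle against sham only after correction, and none of the 8 passes in AGNHW against sham.

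The comparison of vehicle with sham sets 1 library of the occlusion model beside 1 sham library. An effect of the model cannot be told apart in it from other differences between these libraries. Of the 8 genes, 2 (Dlx6 and Dlx6os1) were lower past the size rule, 0 were higher and 6 did not pass. Among all tested genes 14.2% were lower and 8.66% higher, so 2 of 8 is not read as particular to these genes. The split over all genes, 1348 higher and 2207 lower, was 890 and 2836 with plain CPM. The log2 ratios of the 8 genes ran from -1.26 to 0.07 with a median of -0.19, beside 0.01 over all tested genes. After the length and GC correction 3 were lower (Dlx2 joined) against 7.45% of all genes, 0 were higher against 4.98%, and the median was -0.42. In bulk RNA, fewer cells of a type and less RNA per cell cannot be told apart.

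Setting AGNHW beside vehicle again compares 1 library with 1 other, and the labels do not say whether the AGNHW mice were occluded. Length and GC explained 25.1% of the variance of this log2 ratio. An effect of the preparation cannot be told apart from other differences between these libraries. The same 2 genes were higher past the size rule, 0 were lower and 6 did not pass. Among all tested genes 4.01% were higher and 2.56% lower, a split of 624 and 398 that was 808 and 309 with plain CPM. The log2 ratios ran from -0.32 to 1.02, with a median of 0.24 beside 0.00 over all genes, and with Sp8 alone below 0. Corrected, 2 were higher against 3.42% of all genes, 0 were lower against 1.57%, and the median was 0.42. This comparison shares the vehicle library with the first, so a low value in that library alone places a gene low in one and high in the other.

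Without the vehicle library, AGNHW against sham is the only comparison left. Length and GC explained 35.3% of the variance of its log2 ratio. There 0 of the 8 genes were higher and 0 lower, where 3.32% of all tested genes were higher and 5.47% lower, and after correction again 0 and 0, against 2.85% and 3.16%. The log2 ratios ran from -0.30 (Sp8) to 0.28 (Lhx6), with a median of 0.04 beside 0.00 over all genes. Dlx6 had an AGNHW-to-sham ratio of 0.983 (0.809 to 1.19) and Dlx6os1 of 0.841 (0.655 to 1.08). Corrected, these were 0.93 (0.765 to 1.13) and 1.04 (0.814 to 1.34). The ratio of Dlx2 was 0.891 (0.714 to 1.11), and 0.795 (0.637 to 0.992) after correction, which excludes 1.

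The summed counts of Dlx1, Dlx2, Dlx5 and Dlx6 kept nearly the same proportion to the pooled counts of Gad1, Gad2 and Slc32a1 in the 3 libraries. This equality is one of pooled sums, whose genes had unlike ratios, and it was lost after the length and GC correction. The 4 Dlx genes together had 1237 counts in sham, 892 in vehicle and 1248 in AGNHW, or 65.7, 58.6 and 68.3 CPM. The ratios were 0.892 (0.818 to 0.973) for vehicle to sham and 1.17 (1.07 to 1.27) for AGNHW to vehicle. Gad1 and Gad2, which make GABA, and Slc32a1, its vesicular transporter, summed to 10470, 7534 and 10777 counts, with ratios of 0.89 (0.864 to 0.917) and 1.19 (1.16 to 1.23). There were thus 11.8 Dlx counts per 100 counts of these GABA genes in sham (11.1 to 12.5), 11.8 in vehicle (11.0 to 12.7) and 11.6 in AGNHW (10.9 to 12.3). The ratio of these values was 1.0 (0.914 to 1.1) for vehicle to sham, which bounds a difference between these libraries only to that interval. The counts per 100 were chosen after the values were seen.

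Dlx6os1 was low in vehicle on this scale too. Per 100 counts of the GABA genes there were 1.4 counts of Dlx6os1 in sham (1.18 to 1.65), 0.624 in vehicle (0.458 to 0.83) and 1.11 in AGNHW (0.922 to 1.33). The vehicle-to-sham ratio was 0.444 (0.312 to 0.622) and the AGNHW-to-vehicle ratio was 1.78 (1.26 to 2.56). Dlx6 scaled to the GABA genes had ratios of 0.717 and 1.29, both inside the 1.5-fold limit. Slc32a1 did not move with Gad1 and Gad2: its vehicle-to-sham ratio was 1.22 (1.16 to 1.29), against 0.786 (0.753 to 0.821) for Gad1 and 0.759 (0.712 to 0.809) for Gad2. The equal proportion above thus depends on pooling Slc32a1 with Gad1 and Gad2. The corrected ratios of Slc32a1, Gad1 and Gad2 were 0.965, 0.959 and 0.98, whereas that of the summed Dlx genes was 0.785. The equal proportion therefore does not hold on the corrected scale.

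**Figure D3:**
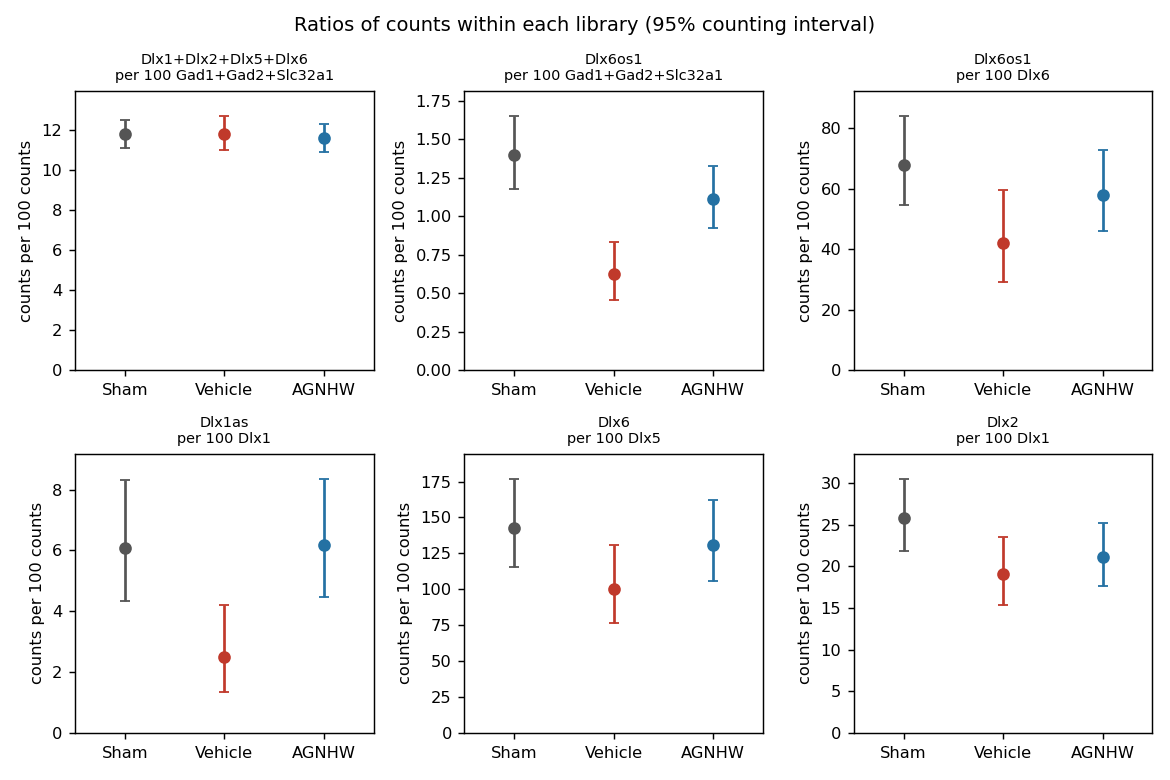
Counts of one gene or sum per 100 counts of another (y axis, from 0) within the sham, vehicle and AGNHW libraries, each point 1 library with its 95% counting interval. The 4 Dlx genes stay at 11.6 to 11.8 per 100 pooled counts of Gad1, Gad2 and Slc32a1, while Dlx6os1 and Dlx1as are lowest in vehicle.

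Other genes of the lineage were taken from lists, whose counts stand beside the shares over all tested genes. In vehicle against sham 8.66% of all genes were higher and 14.2% lower, and 4.98% and 7.45% after correction. In AGNHW against vehicle 4.01% were higher and 2.56% lower. Of 14 tested factors that pattern the ventral forebrain, 1 was higher and 4 were lower in vehicle than in sham, and the median log2 ratio was 0.12 although their summed level was 0.805 times sham. The corrected median was -0.07, with 2 lower and 1 higher. Isl1, a factor of striatal neurons, was 1.69-fold lower (1.11 to 2.62), and the hedgehog target Gli1 was 1.53-fold higher (1.24 to 1.89); neither passed after correction (0.669 and 1.34). In AGNHW against vehicle, 0 were higher and 1 (Gli1) was lower, 1.77-fold (1.42 to 2.21), with a list median of 0.15.

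Of 17 tested factors that guide the migration and maturation of interneurons, 9 were lower in vehicle than in sham and 0 were higher. Among all tested genes 14.2% were lower. The median log2 ratio of the list was -0.62 beside 0.01 over all genes. After correction 3 were lower, against 7.45% of all genes, and the median was -0.36. Zeb2, which directs cortical interneurons away from a striatal fate, was 2.31-fold lower (2.05 to 2.61) with 1056, 369 and 583 counts in sham, vehicle and AGNHW. Sox6, which acts after Lhx6, was 2.16-fold lower (1.76 to 2.65), Etv1, found in olfactory bulb interneurons, 2.12-fold (1.88 to 2.39), and St18 2.42-fold (1.54 to 3.94). The corrected ratios of Zeb2 and Etv1, 0.723 and 0.761, lay inside the 1.5-fold limit, whereas those of Sox6 and St18, 0.663 and 0.578, did not. In AGNHW against vehicle 2 of the 17 were higher and 0 were lower, around a median of 0.35.

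In mature GABAergic neurons, none of the 5 GABA synthesis and transport genes passed the size rule in any comparison. Of 19 tested interneuron subtype markers, 2 were higher and 2 lower in vehicle than in sham, with a median of -0.13 although the summed level of the list was 1.06 times sham, and 0 passed in AGNHW against vehicle. Pvalb, the parvalbumin gene of fast-spiking interneurons, was 1.6-fold higher (1.48 to 1.75) and Calb2, calretinin, 1.53-fold higher (1.42 to 1.65). The cannabinoid receptor Cnr1 was 2.19-fold lower (1.98 to 2.42) and the receptor kinase Kit 1.72-fold lower (1.49 to 2.0). Among these 4, the corrected ratio of Cnr1 alone, 0.586, stayed past the limit. Sst, the somatostatin gene of Lhx6-derived interneurons, had 3030, 3089 and 3151 counts, Npy had 1129, 1091 and 1088, and Vip had 476, 340 and 427, none of them past the rule.

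Markers of migrating neuroblasts and of other forebrain neurons were read in the same way. Of 13 migrating neuroblast genes, 7 were lower in vehicle, against 14.2% of all tested genes, and none (0) was higher. Their median was -0.70. After correction 2 were lower, against 7.45% of all genes, and the median was -0.28. The summed level of the list was 1.02 times sham. Most of that sum came from Stmn1 and Tubb3, with 12599 and 7515 of the 25962 counts in sham. Dcx, doublecortin, had 497, 193 and 283 counts, and its corrected vehicle-to-sham ratio of 0.761 lay inside the limit. St8sia4, which adds polysialic acid, had 121, 39 and 67 counts and a corrected ratio of 0.694. Of 12 striatal projection neuron markers, 1 was higher and 2 were lower around a median of 0.00: Pde10a was 2.1-fold lower (1.93 to 2.28), Rarb 1.76-fold lower (1.23 to 2.55) and Ppp1r1b 1.73-fold higher (1.69 to 1.77). Corrected, the striatal list had 3 lower members, 0 higher ones and a median of -0.28: Pde10a (0.62) and Rarb (0.634) still passed and Ppp1r1b (1.37) did not. Drd2, a dopamine receptor of indirect pathway neurons, had 736, 762 and 884 counts. Of 12 cortical glutamatergic markers, 1 was lower and 0 higher, with a median of -0.06 and a summed level of 1.17 times sham. Slc17a7 alone gave 38320 of the 51780 counts of this list in sham. Of 5 tested olfactory bulb markers, 2 were higher (Th and Doc2g) and 0 lower, and after correction neither passed (1.22 and 1.26).

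**Figure D4:**
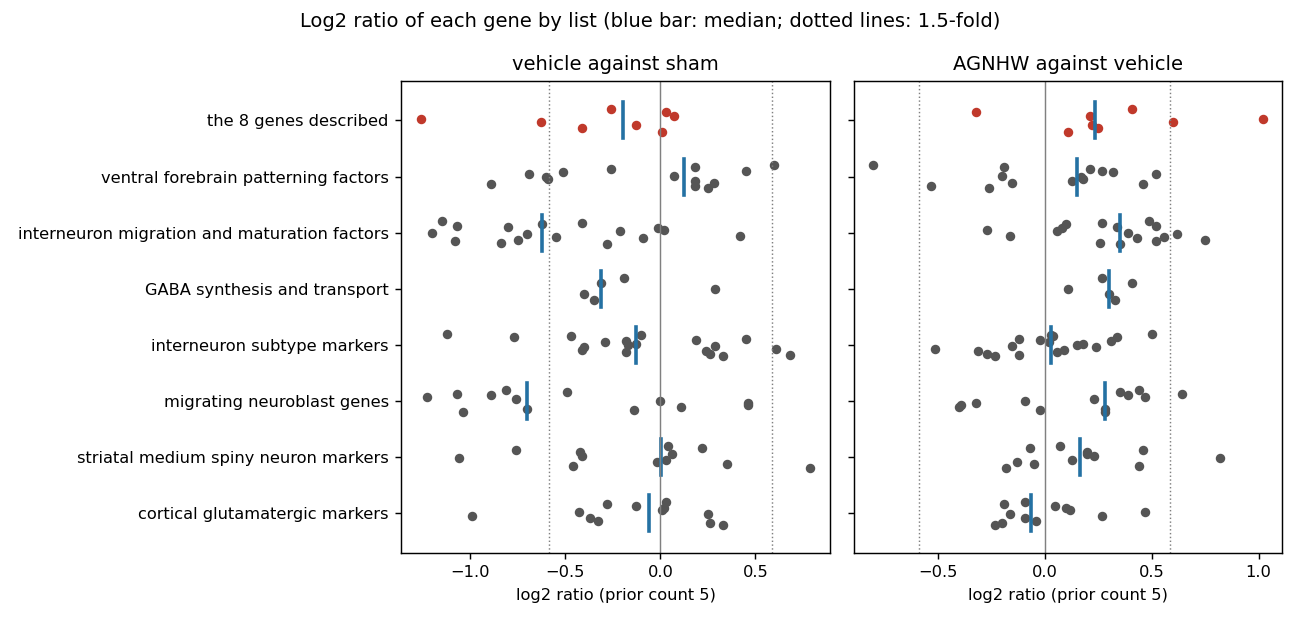
Log2 ratio (x axis, prior count 5) of each tested gene in vehicle against sham and AGNHW against vehicle, for the 8 genes described (red) and 7 lists of related genes (grey), with the median as a blue bar and dotted lines at 1.5-fold. In vehicle against sham the medians of the interneuron migration factors (-0.62) and neuroblast genes (-0.70) lie below that of the 8 genes (-0.19); after the length and GC correction, not drawn here, they are -0.36 and -0.28 and lie above that of the 8 genes (-0.42).

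Of 14 tested paralogues and LIM partners, 1 was higher and 2 lower in vehicle than in sham, with a median of -0.26, beside 8.66% higher and 14.2% lower among all genes. Nothing is read from these counts about the family. Sp4 was 2.75-fold lower (2.04 to 3.76) and Sp3 1.92-fold lower (1.59 to 2.34), while Lhx5, a LIM factor of the hypothalamus, was 2.4-fold higher (1.55 to 3.77). Corrected, Sp4 (0.518) and Lhx5 (1.87) still passed and Sp3 (0.717) did not. In AGNHW against vehicle, Sp4 was 1.58-fold higher (1.13 to 2.21) and Sp7 1.77-fold higher (1.06 to 3.05), and after correction Sp4 (1.36) no longer passed. Dlx3 was not among the counted genes, and Dlx4 had 4, 4 and 14 counts, below the minimum mean.

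Genes whose course over the 3 libraries was nearest to that of each member were found by the distance over the log2 ratios of vehicle to sham and AGNHW to vehicle. For Dlx6os1 they were Sall1, Pcdhac2, Zbtb41, Thbd and Rcor3, at distances of up to 0.108, and 4 of 11431 genes lay within 0.1. Sall1, a zinc finger factor of microglia and neural progenitors, had 431, 139 and 337 counts. For Dlx6 the nearest included Arl5b, Acad11, Arrdc3 and E2f5, with 43 genes within 0.1. The flat course of Dlx1 was shared by 529 genes within 0.1, Otud7a, Fezf2, Pyurf, Mccc2 and Kctd18 nearest. Within 0.1 there were 511 genes for Dlx2 (Snapc1 nearest), 321 for Dlx5 (Atp6v1c1), 171 for Lhx6 (Rgs9), 83 for Sp9 (Tmem203) and 92 for Sp8 (Qpct). With only 3 libraries, closeness of this kind is a description of these values.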

How the data were processed

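Total RNA from mouse brain was sequenced, per the labels, in 3 libraries (sham, vehicle, AGNHW), grouped by title. For each gene symbol the authors deposited a raw read count. TopHat2 2.0.12, Bowtie2 2.2.3 and HTSeq 0.6.0 are named with the build mm9, per the submitters' processing notes. No gene in the tables analysed has fewer than 21 counts in all. The sources used here give neither strand setting nor annotation, and no coordinates were taken from the counts.

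Counts were scaled by TMM in edgeR 4.0.16 (R 4.3.3), with factors of 1.03, 0.968 and 1.0. Ratio intervals are 95% exact conditional binomial intervals and level intervals are exact Poisson intervals. They cover counting error only, and reads that carry no molecular identifier cannot be counted as separate molecules. Log2 ratios used a prior count of 5. Python 3.11.15 with scipy 1.17.1 was used, and the ratio functions were tested on simulated data. Exon lengths and GC content came from GENCODE M21, which matched 97.6% of symbols; the length and GC trend was a smooth surface fitted with mgcv 1.9.3 on genes of at least 10 CPM. Ratios between genes within a library, and scaling to Gad1, Gad2 and Slc32a1, were added after the data were seen.

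The 8 genes and all lists were chosen with earlier results of these data known. Named genes were the 8 and a fixed set (including Gad1, Gad2, Slc32a1, Sst, Pvalb, Vip, Npy, Dcx and Drd2). From each list came up to 4 genes past the size rule in any comparison, taken by the size of their log2 ratio. The 5 nearest genes of at least 5 CPM by course were also named. Dlx4, Calb1, Stmn1, Tubb3, Slc17a7 and the genes named as not counted were chosen after their values were seen. Some genes that this rule names are not reported here. Alternatives were plain CPM, DESeq2 1.42.0 size factors, upper quartile factors, no minimum CPM, a 2-fold limit, a 99% interval, a prior count of 1, and the length and GC correction.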

Additional observations from a re-analysis of the deposited data

How the results depend on the processing

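With 1 library per group, depth bounds counting error only, and Sp8 had the fewest counts of the 8 genes. No paired analysis was possible because each group has 1 library. Ratios of single members were also taken under the other scalings and the length and GC correction. Of these, 116 kept their value within the counting interval and 4 moved beyond it, and the cause was not tested. Some crossed 1: in AGNHW against vehicle, GABA gene scaling took Lhx6 from 1.16 to 0.972 and Dlx1 from 1.08 to 0.908. With a prior count of 1, all 24 log2 ratios stayed within the counting interval. The moved values were Dlx6os1 in vehicle against sham (0.572, length and GC corrected) and, with scaling to Gad1, Gad2 and Slc32a1, Dlx1 (1.13 in vehicle against sham, 0.908 in AGNHW against vehicle) and Lhx6 (0.972 in AGNHW against vehicle). That scaling divides every vehicle-to-sham ratio by 0.89 and every AGNHW-to-vehicle ratio by 1.19.

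With a 2-fold limit, 1 of the 8 genes (Dlx6os1) was lower in vehicle than in sham and 1 was higher in AGNHW than in vehicle. With the GABA gene scaling the counts were also 1 and 1, since Dlx6 no longer passed (0.717 and 1.29). The summed Dlx ratio of vehicle to sham was 0.785 after length and GC correction and 1.0 with GABA gene scaling, and that of AGNHW to vehicle was 0.978 with the latter.

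Over all genes in vehicle against sham, the count higher was 890 with plain CPM, 307 with a 2-fold limit, 758 corrected and 2754 with GABA gene scaling, and the count lower was 711 with a 2-fold limit, 1135 corrected and 1361 with GABA gene scaling. In AGNHW against vehicle, the count higher was 175 with a 2-fold limit and 184 with GABA gene scaling, and the count lower was 116, 239 corrected and 1595. In AGNHW against sham, the main split of 517 higher and 851 lower had 179 higher with a 2-fold limit, and 192 lower with that limit, 481 corrected and 1285 with GABA gene scaling (377 higher).

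Over the listed genes in vehicle against sham, 22 were higher (12 with a 2-fold limit, 14 corrected) and 36 lower (16 and 23). In AGNHW against vehicle, 9 were higher (1 with a 2-fold limit, 1 with GABA gene scaling) and 13 lower (8 and 22). In AGNHW against sham, 6 were higher (0 with a 2-fold limit) and 13 lower (1 with that limit, 5 corrected, 20 with GABA gene scaling). These are totals over all lists without a share of the listed genes, so nothing is read from their size.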

Other observations

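Markers of other brain cell types were read over the same libraries, and their part in the values of the 8 genes was not tested. Among all tested genes 8.66% were higher and 14.2% lower in vehicle than in sham, and 4.98% and 7.45% after length and GC correction. Of 8 tested hypothalamic markers, 3 were higher in vehicle than in sham and 0 lower, with a summed level of 116.8 CPM in vehicle against 77.9 CPM in sham and 86.3 CPM in AGNHW, and after length and GC correction 0 passed. Of 6 astrocyte markers, 1 was higher and 2 lower (0 and 2 corrected). Their summed levels were 2481, 1738 and 2017 CPM in sham, vehicle and AGNHW, the order kept here. Of 6 oligodendrocyte markers, 1 was higher and 1 lower (2 and 0 corrected), with sums of 7057, 9238 and 8604 CPM. Of 6 microglia markers, 0 were higher and 2 lower (0 and 3 corrected), with sums of 191.9, 143.6 and 157.4 CPM. Of 6 endothelial markers, 0 were higher and 2 lower (0 and 1 corrected), with sums of 147.0, 133.8 and 156.3 CPM. Of 5 tested cerebellar markers, 0 were higher and 1 lower (0 and 1 corrected), with sums of 213.7, 184.8 and 197.4 CPM. Calb1, also on the interneuron subtype list, gave 2058, 1254 and 1606 of the 4021, 2811 and 3605 counts of this list. These sums are thus not read as a level of cerebellar RNA. No counted gene of these lists was at 0 in any library. Sim1 of the hypothalamic list and Pcp2 and Gabra6 of the cerebellar list were not among the counted genes.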
